A study of Mus musculus with 8 samples.

Results

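Matrix metalloproteases (MMPs), ADAMs, ADAMTS proteases and the tolloids are zinc proteases that cut proteins at the cell surface and in the extracellular matrix. The group described here has 38 genes, chosen by symbol and matched to Ensembl mouse gene IDs, and all 38 were found among the 47729 genes of the NSC table and the 40562 genes of the astrocyte table. It covers 2 tolloids, 11 MMPs, 5 inhibitors, 8 ADAMs and 12 ADAMTS genes. The rule that defines them uses symbols alone, although it was written with earlier results of these data known.

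RNA sequencing was performed on 8 libraries from cultured cells of C57BL/6 background, labelled 10 weeks of age. The WT and S89G-DMP1 groups of neural stem cells (NSCs), grown as neurospheres from the subventricular zone, held 3 libraries each. The WT and S89G-DMP1 groups of cortical astrocytes, cultured with serum, held 1 library each. S89G-DMP1 mice are homozygous for a knock-in mutation that changes the serine of DMP1 that carries its chondroitin sulfate chain to glycine. The Neo selection cassette of the knock-in allele was removed by a cross to an FLP1 strain with a B6.129S4 designation, and the controls were wild-type C57BL/6 mice that are not described as littermates. The methods place the mice used for astrocyte culture at an older age than the labels do and include both sexes. Nothing says whether the 3 NSC libraries of a genotype came from separate mice or cultures, so that their p-values measure the spread between these libraries, which may be technical. For pairs of NSC libraries a mean chi-square per gene was taken, which is near 1 for counting error alone. It was 1.07 to 1.51 within a genotype and 3.18 to 4.07 between genotypes, so libraries of a genotype differed by little more than counting error.

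As background, Bmp1 and Tll1 are tolloid proteases that trim procollagens and cut DMP1 into its N-terminal and C-terminal fragments. MMPs are made as inactive precursors, and the membrane-type MMPs act at the cell surface and can activate others, such as MMP2. The TIMPs bind the active site of these proteases, and Reck is a membrane-anchored inhibitor. ADAMs shed the outer domains of membrane proteins, ADAM10 and ADAM17 being known for cutting Notch, APP and growth factor precursors. Several ADAMTS enzymes, the proteoglycanases, cut the chondroitin sulfate proteoglycans of the brain matrix, including aggrecan, brevican and versican.

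The cultures were checked against markers before the members were read. The WT astrocyte library held 90 counts of Gfap, 8 of Aqp4 and 30 of Sox2 among 14008670 counts, and the S89G-DMP1 library held 901, 4051 and 2705 among 13016924. The summed level of 10 astrocyte markers was 160 CPM (counts as a share of the library total after TMM scaling) in the WT library and 1169 CPM in the S89G-DMP1 library, while 12 fibroblast and meningeal markers summed to 8776 and 2114 CPM. The WT library labelled as astrocytes thus had low levels of the defining astrocyte markers and high levels of fibroblast markers such as Dcn. In the NSCs, with 2354615 to 2588130 counts per library, Sox2 had 747 to 890 counts in each library and 7 of the 12 fibroblast markers were at 0 in all 6. In such bulk samples, fewer cells of a type and less RNA per cell cannot be told apart.

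The promoter windows below, from RefSeq on GRCm38.p6, show the 250 bases before the start of transcription of 4 members on which the results turn. Adamts1 fell in S89G-DMP1 NSCs, Timp3 was the most abundant member in WT astrocytes, and Mmp3 and Mmp13 had no count in any NSC library. Capitals mark matches on either strand to the GC box GGGCGG, which Sp-family factors can bind, in Adamts1 and Timp3, and to the AP-1 motif TGANTCA in Mmp3 and Mmp13. Adamts1 lies on the minus strand at chr16:85803114-85803363, and the others on the plus strand, Timp3 at chr10:86300162-86300411, Mmp3 at chr9:7445572-7445821 and Mmp13 at chr9:7272264-7272513.
Adamts1: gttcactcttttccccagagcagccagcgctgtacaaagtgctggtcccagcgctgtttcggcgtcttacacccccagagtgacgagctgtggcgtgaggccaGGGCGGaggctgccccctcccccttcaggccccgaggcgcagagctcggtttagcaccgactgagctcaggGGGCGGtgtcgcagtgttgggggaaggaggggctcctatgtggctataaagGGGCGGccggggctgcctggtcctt
Timp3: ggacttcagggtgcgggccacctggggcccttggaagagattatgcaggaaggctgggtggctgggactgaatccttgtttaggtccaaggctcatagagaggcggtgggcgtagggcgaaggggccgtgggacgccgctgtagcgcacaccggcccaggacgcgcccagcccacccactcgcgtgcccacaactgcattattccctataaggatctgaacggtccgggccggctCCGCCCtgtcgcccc
Mmp3: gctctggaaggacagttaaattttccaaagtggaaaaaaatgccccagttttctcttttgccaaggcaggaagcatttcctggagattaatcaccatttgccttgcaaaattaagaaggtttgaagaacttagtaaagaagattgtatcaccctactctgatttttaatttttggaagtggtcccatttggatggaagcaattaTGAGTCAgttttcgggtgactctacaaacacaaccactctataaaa
Mmp13: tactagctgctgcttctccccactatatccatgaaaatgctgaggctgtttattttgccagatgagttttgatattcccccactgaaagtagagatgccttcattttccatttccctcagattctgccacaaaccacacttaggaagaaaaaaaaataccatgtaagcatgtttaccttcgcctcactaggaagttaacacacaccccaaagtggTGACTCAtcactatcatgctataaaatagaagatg
The 3 GC boxes of Adamts1 begin 147, 76 and 25 bases before the start, that of Timp3 begins at 15, and the AP-1 matches begin at 46 in Mmp3 and 35 in Mmp13. Promoter entries were found for 24 of the 38 members, with 26 promoters in all. The shares below were counted over whole entries, from 250 bases before the start to 50 bases after it. The GC box was found in 16 of these 26 promoters (61.5%) and in 35.7% of all 32851 mouse promoters of the table. The AP-1 motif was found in 3 of the 26 (11.5%), those of Adam19, Mmp3 and Mmp13, and in 7.81% of all promoters. A match describes the letters of the window and does not show binding.

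Levels were compared between genes as TMM-scaled CPM per kb, with the gene length implied by the deposited FPKM values. In WT NSCs the 5 highest members were Mmp15 (286 ± 12.1 CPM per kb, SD, n = 3), Adam12 (259 ± 9.68), Adam10 (99.0 ± 5.08), Adam19 (78.1 ± 3.33) and Adam9 (70.5 ± 2.32). Mmp15, which encodes a membrane-type MMP, made up 89.5% ± 0.325 of the level of the 5 membrane-type MMPs in WT NSCs and 89.1% ± 0.898 in S89G-DMP1 NSCs. In the library labelled WT astrocytes, with the markers given above, the highest were Timp3 (5324 CPM per kb), Timp2 (2279), Mmp14 (632), Timp1 (537) and Mmp2 (233). In the S89G-DMP1 astrocyte library they were Timp2 (699 CPM per kb), Timp3 (321), Mmp14 (195), Adam10 (121) and Adam9 (92.1), of which Adam10 and Adam9 were also among the 5 highest in WT NSCs. In the WT library Mmp14, the activator of MMP2 at the cell surface, took 97.3% of the membrane-type MMPs, against 0.294% for Mmp15. With the summed exon length of GENCODE M21 in place of the deposited length, an alternative chosen after the data were seen, 4 of the 5 highest were shared in each group, and Mmp14 and Adam19 were not among them in the WT groups. With those lengths Mmp15 took 95.3% of the membrane-type MMPs in WT NSCs and Mmp14 94.9% in WT astrocytes. The tables of the 2 cell types were made separately with different programs and scaled separately, so these levels are set side by side without a test.

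**Figure D1:**
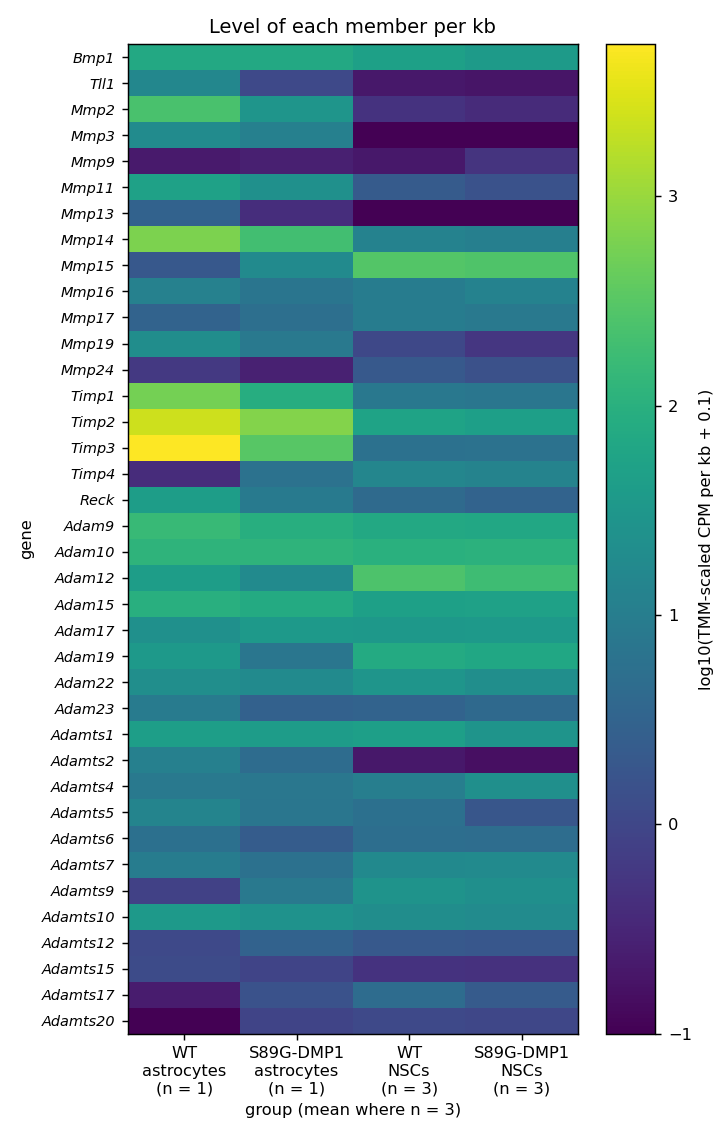
Level of each of the 38 members in the 4 groups, coloured by log10 of TMM-scaled CPM per kb plus 0.1, as the mean of 3 libraries for NSCs and as 1 library for astrocytes. Timp3 and Timp2 are brightest in WT astrocytes, and Mmp15 and Adam12 in the NSCs, where Mmp3 and Mmp13 are at 0.

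In the NSCs, 28 of the 38 members passed the filter on low counts and were tested between S89G-DMP1 and WT with edgeR's quasi-likelihood test, Benjamini-Hochberg adjusted over 11194 genes. Of these 28, 9 fell and 1 rose at an adjusted p below 0.05, while 8.76% of all genes tested fell and 7.08% rose. The share of tested members that fell was 32.1%. With DESeq2, 5 members fell and 1 rose, against 4.49% and 3.11% of all genes. With limma on the deposited TPM values, as log2(TPM + 1), the falls of Bmp1 and Adam12 and the rise of Adamts4 passed, and those of the other 7 did not. The median log2 fold change of the 28 was -0.15, and that of all genes tested 0.00. The groups of 3 libraries did not overlap for 13 of the 28, against 30.7% of all genes tested. The filter removed 10 members, Tll1, Mmp2, Mmp3, Mmp9, Mmp11, Mmp13, Mmp19, Adamts2, Adamts15 and Adamts20, none of which exceeded 12 counts in any NSC library. Mmp3 and Mmp13 had 0 counts in all 6, where a count of 0 allows up to 3 counts per library.

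Marker levels moved with genotype in the NSCs as well. The astrocyte markers summed to 1699 to 1747 CPM in WT and 2213 to 2249 CPM in S89G-DMP1 libraries, with 3 of 7 tested markers higher and 0 lower (edgeR; also 0 at an unadjusted p under 0.05 and 0 with DESeq2). The 9 progenitor markers summed to 5097 to 5374 CPM and 5630 to 5684 CPM, with 3 of 9 higher. The 8 mural markers summed to 175 to 178 CPM and 112 to 136 CPM. Cspg4, the 1 marker of that list tested, made up most of the sum and was lower. It was at 173, 172 and 176 CPM in WT and 131, 115 and 107 CPM in S89G-DMP1 libraries. The endothelial markers summed to 2.11 to 4.27 CPM and 5.56 to 10.5 CPM, with Flt1 higher as the 1 tested. Pdgfra, from the fibroblast and meningeal list, fell by 0.84 and the neuron marker Syt1 by 3.0 on the log2 scale. The fibroblast and meningeal list summed to 19.42 to 29.95 CPM and 18.05 to 21.48 CPM, which overlapped. The summed neuron markers were 1155 to 1302 CPM and 1190 to 1214 CPM. Of these, Flt1, Pdgfra and Syt1 were named after their values were seen. The part of these shifts in the members' differences was not tested.

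The tolloid Bmp1 (ENSMUSG00000022098) fell in S89G-DMP1 NSCs. It was at 179.9, 179 and 186 CPM in the WT libraries and 136, 149 and 144 CPM in the S89G-DMP1 libraries. Every S89G-DMP1 library lay below every WT library, and the log2 fold change was -0.35 ± 0.07 (SE; adjusted p = 1.04e-04), a level 1.27-fold lower. Tll1, the other DMP1-cleaving protease of the group, had 0, 3 and 1 counts in WT and 0, 1 and 2 counts in S89G-DMP1 NSCs. Expression of Tll1 was therefore near the limit of detection in both genotypes. Dmp1 itself was at 7.59, 8.16 and 6.39 CPM in WT and 2.53, 1.28 and 2.0 CPM in S89G-DMP1 NSCs, a log2 fold change of -1.90 ± 0.38 (adjusted p = 1.30e-04).

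Of the membrane-type MMPs, 0 of 5 passed the threshold in the NSCs with edgeR or with DESeq2, and 1 of 5, Mmp16, had an unadjusted edgeR p under 0.05. Mmp15 was at 1194, 1240 and 1298 CPM in WT and 1256, 1188 and 1079 CPM in S89G-DMP1 NSCs. These values overlapped, and the 95% interval of its log2 fold change ran from -0.18 to 0.02 (adjusted p = 0.275). Mmp16 lay above WT in all S89G-DMP1 libraries, at 30.3, 27.8 and 31.3 CPM against 24.4, 23.7 and 21.6 CPM, with an adjusted p of 0.0857 (edgeR; unadjusted, its 95% interval was 0.07 to 0.66). Mmp17 lay below WT in all 3 (log2 fold change -0.26, adjusted p = 0.202). Mmp14 and Mmp24 overlapped between genotypes, with log2 fold changes of -0.14 and -0.51.

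Among the inhibitors, Timp2 alone passed the threshold in the NSCs. TIMP2 both inhibits MMPs and takes part in the activation of pro-MMP2. Timp2 was at 123, 113 and 128 CPM in WT and 110.4, 99.7 and 99.5 CPM in S89G-DMP1 NSCs. The groups did not overlap, though WT library 2 and S89G-DMP1 library 1 were close, and the log2 fold change was -0.23 ± 0.08 (adjusted p = 0.0317). The call was lost with DESeq2 (adjusted p = 0.217), without the filter on low counts (adjusted p = 0.0623) and in 4 of 6 fits that left out a library, those without WT library 1 or 3 or S89G-DMP1 library 2 or 3, where the log2 fold change ranged from -0.29 to -0.20 over all 6. Timp4 had log2 fold change -0.18 (adjusted p = 0.322), Timp1 -0.11, Timp3 0.06 and Reck -0.46, and these did not pass. Timp2 made up 66.0% ± 3.77 of the summed level of the 4 TIMPs per kb in WT NSCs and 64% ± 1.01 in S89G-DMP1 NSCs, a difference smaller than the SD in WT.

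Adam12 (ENSMUSG00000054555), a protease of the meltrin type that can shed growth factor precursors, was among the 5 highest members per kb in the NSCs, and it fell. It was at 686, 699.6 and 651 CPM in WT and 502, 478 and 454 CPM in S89G-DMP1 NSCs. All 3 S89G-DMP1 libraries lay well below WT, with a log2 fold change of -0.51 ± 0.05 (adjusted p = 8.34e-12). Adam19, a related meltrin that processes neuregulin, was at 174, 187 and 189 CPM in WT and 157, 148 and 161 CPM in S89G-DMP1 NSCs. The groups did not overlap, and the log2 fold change was -0.24 ± 0.07 (adjusted p = 0.00811, and 0.0825 with DESeq2); the call was lost without S89G-DMP1 library 2. Adam22, which lacks protease activity and is a neuronal receptor for LGI1, was at 78.4, 71.9 and 82.7 CPM in WT and 61.5, 59.9 and 52.9 CPM in S89G-DMP1 NSCs. The log2 fold change was -0.42 ± 0.10 (adjusted p = 0.00122), without overlap.

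The other ADAMs did not pass the threshold. Adam10, the main sheddase of Notch and of N-cadherin, was at 212, 209 and 229.6 CPM in WT and 240.1, 246 and 229 CPM in S89G-DMP1 NSCs, and its log2 fold change of 0.14 ± 0.06 had an adjusted p of 0.139. Adam9 was at 277, 266 and 284 CPM in WT and 239, 263 and 289 CPM in S89G-DMP1 NSCs. These overlapped, with an interval of the log2 fold change from -0.19 to 0.06. For Adam17, the sheddase of TNF and EGFR ligands, the interval ran from -0.10 to 0.23. Adam15 and Adam23, another non-catalytic ADAM, had log2 fold changes of 0.01 and 0.37. Per kb, the 6 ADAM sheddases summed to 589 ± 8.73 in WT and 509 ± 7.29 CPM per kb in S89G-DMP1 NSCs, and the fall of Adam12 from 259 to 182 CPM per kb was most of that gap.

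The ADAMTS proteoglycanases held both the largest fall among the tested members and the 1 rise. Of 6, 4 were tested and 4 were called, Adamts4 higher and Adamts1, Adamts5 and Adamts9 lower. Adamts4 (ENSMUSG00000006403) was at 46.4, 36.9 and 45.9 CPM in WT and 93.9, 100.1 and 84.6 CPM in S89G-DMP1 NSCs. Every S89G-DMP1 library was well above every WT library, and the log2 fold change was 1.11 ± 0.10 (adjusted p = 1.61e-13), a level 2.16-fold higher. Adamts4 is known for high expression in oligodendrocytes, and the 7 oligodendrocyte markers summed to 87.4 to 101 CPM in WT and 80.0 to 95.5 CPM in S89G-DMP1 NSCs, with 0 of 2 tested markers called by edgeR, at an unadjusted p under 0.05 or by DESeq2.

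Adamts5 (ENSMUSG00000022894), the other major aggrecanase, was at 50.1, 44.3 and 36.3 CPM in WT and 13.9, 13.3 and 15.6 CPM in S89G-DMP1 NSCs. The lowest WT library, at 36.3 CPM, lay above the highest S89G-DMP1 library, at 15.6 CPM, and the log2 fold change was -1.60 ± 0.16 (adjusted p = 1.07e-12). In the deposited TPM values WT library 1, at 3.81, lay below the S89G-DMP1 libraries (4.32 to 4.60) while the other WT libraries were at 14.2 and 11.5. With limma on log2(TPM + 1) the change of Adamts5 was -0.82 (adjusted p = 0.436). Adamts1 (ENSMUSG00000022893), which also cuts versican, was at 122, 129 and 119.8 CPM in WT and 74.6, 71.9 and 71.8 CPM in S89G-DMP1 NSCs. The log2 fold change was -0.77 ± 0.08 (adjusted p = 4.21e-11), 1.70-fold lower and without overlap, while limma on log2(TPM + 1) gave -0.52 (adjusted p = 0.261). Adamts1 and Adamts5 are direct neighbours on chromosome 16 in GENCODE M21. Adamts9 fell less, from 119, 110 and 111 CPM in WT to 92.7, 89.4 and 99.9 CPM in S89G-DMP1 NSCs (log2 fold change -0.27 ± 0.08, adjusted p = 0.0153). The call for Adamts9 was lost with DESeq2 (adjusted p = 0.140) and without WT library 1, S89G-DMP1 library 1 or S89G-DMP1 library 2.

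The composition of the proteoglycanases therefore shifted. Per kb, the level of Adamts4 divided by that of Adamts5 was 1.84, 1.66 and 2.51 in the WT NSC libraries and 13.4, 15.0 and 10.7 in the S89G-DMP1 libraries. The ratio was above 10 in every S89G-DMP1 library and below 3 in every WT library. Adamts4 made up 11.6% ± 1.46 of the 6 proteoglycanases in WT and 30.1% ± 2.29 in S89G-DMP1 NSCs, while Adamts1 made up 51.3% ± 2.09 and 36.2% ± 0.50. The share of Adamts9 was 29.7% ± 0.812 and 29.6% ± 2.0. With GENCODE exon lengths the share of Adamts4 was 20.1% and 46.9%, that of Adamts1 52.4% and 33.3%, and that of Adamts9 16.9% and 15.2%. The summed level of the 6 genes was 91.0 ± 2.34 CPM per kb in WT and 75.7 ± 0.949 CPM per kb in S89G-DMP1 NSCs, which did not overlap. These sums and shares come from the calls above and were not tested separately.

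**Figure D2:**
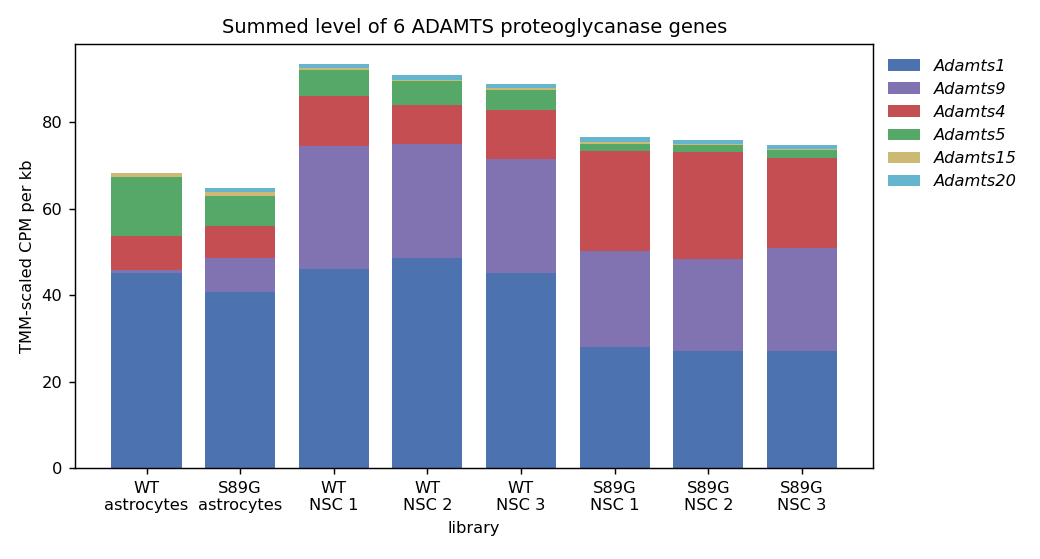
Stacked level of the 6 ADAMTS proteoglycanase genes in each of the 8 libraries, in TMM-scaled CPM per kb, with 1 bar per library. The bars of the 3 S89G-DMP1 NSC libraries are lower than those of WT NSCs (75.7 against 91.0 on average), with a larger Adamts4 segment and smaller Adamts1 and Adamts5 segments.

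Of the other 5 ADAMTS genes tested, Adamts17 fell. Its enzyme is linked to fibrillin microfibrils. It was at 11, 14 and 7.59 CPM in WT and 4.63, 6.85 and 4.41 CPM in S89G-DMP1 NSCs, from 11 to 36 counts per library. The log2 fold change was -1.04 ± 0.28 (adjusted p = 0.00553), and the call was lost with DESeq2 (adjusted p = 0.0941) and without WT library 2. Adamts6, Adamts7, Adamts10 and Adamts12 had log2 fold changes from -0.17 to 0.01 and were not called.

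**Figure D3:**
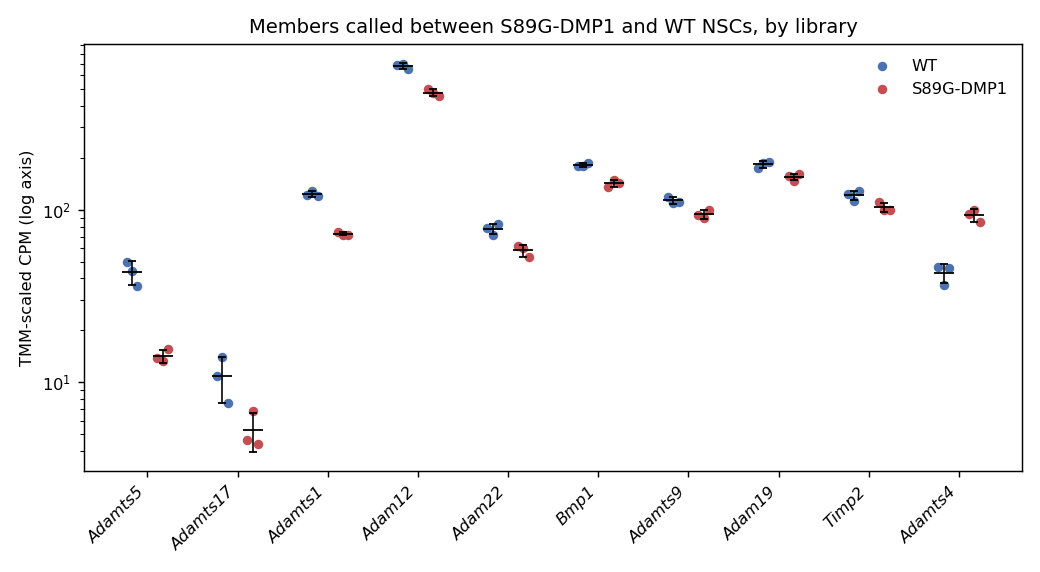
TMM-scaled CPM of the 10 called members in each NSC library, on a log axis, with points for libraries (3 WT and 3 S89G-DMP1) and black bars for the mean and SD. Genes are ordered by log2 fold change, from Adamts5 (-1.60) to Adamts4 (1.11). The genotypes do not overlap for any of the 10 in these units, but the 10 were chosen by their calls on the same libraries. Of all genes tested, 30.7% did not overlap.

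In the astrocyte cultures, with 1 library per genotype, differences had no replicate check and no test. Of the 38 members, 37 had at least 10 counts in either library, and Mmp9, a gelatinase, had 2 and 3 counts. By a 2-fold rule, 16 of the 37 were lower and 6 were higher with S89G-DMP1, while 12.8% of 15680 genes were 2-fold lower and 17.3% higher. These shares were 43.2% and 16.2% of the members. The median log2 ratio of the members was -0.73 and that of all genes 0.01. Scaling by library size alone, which put the median of all genes at 0.30, gave 13 members lower and 7 higher, and 1515 genes lower and 3487 higher in place of 2010 and 2713. Ranges in parentheses after a fold are 95% intervals that cover counting error only.

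Timp3 and Timp2 were the most abundant members in the WT astrocyte library, and 4 of the 5 inhibitors were lower in the S89G-DMP1 library by the 2-fold rule while 1 was higher. Timp3 (ENSMUSG00000020044), an inhibitor that stays bound to the matrix and also blocks ADAMs and ADAMTS proteases, was at 12134 CPM in WT against 733 CPM in S89G-DMP1, 16.6-fold lower (16.2 to 16.9). In GENCODE M21 21.3% of its exon bases overlap Syn3 on the other strand, which had 64 and 25 counts. Timp2 was at 5045 and 1549 CPM, 3.26-fold lower (3.21 to 3.31), and Timp1 at 460 and 74.0 CPM, 6.22-fold lower (5.83 to 6.65). Reck was at 134 and 27.1 CPM, 4.93-fold lower (4.42 to 5.52). Timp4 went the other way, from 0.948 to 19.2 CPM, 20.3-fold higher (11.4 to 39.8), on 12 and 277 counts. It shares 1.53% of its exon bases with Syn2 on the other strand, which had 13 and 384 counts. Timp3 was 65.4% of the 4 TIMPs per kb in WT and 28.9% in S89G-DMP1, where Timp2 took 62.8%, while with GENCODE exon lengths Timp3 was 45.1% and 15.7%.

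Levels on the cell type marker lists also differed between the astrocyte libraries. Of the 11 fibroblast and meningeal markers counted, 10 passed the 2-fold rule downward with S89G-DMP1, 7 of 9 astrocyte markers and 7 of 9 progenitor markers passed it upward, and Slc22a6, a meningeal marker, was at 0 in both. Endothelial markers summed to 195 CPM in WT against 71.7 CPM in S89G-DMP1, with Cldn5 at 0 in both and Tie1 at 0 in S89G-DMP1. Mural markers summed to 3268 and 3968 CPM, with Kcnj8 at 0 in both. The higher mural sum came with Acta2 (9152 and 35539 counts), while Pdgfrb (11765 and 2276 counts) and Rgs5 (2431 and 39 counts) were lower. Summed levels were, for microglial markers, 582 and 851 CPM, for oligodendrocyte markers 49.6 and 91.9 CPM and for neuron markers 97.4 and 300.4 CPM. The mural markers named here with their own counts were chosen after these were seen. Mag and Dcx were at 0 in WT and Mog in S89G-DMP1. The astrocyte marker Gjb6 was at 0 in the S89G-DMP1 library. The part of these lists in the members' differences was not tested, and with 1 library per genotype culture and genotype cannot be told apart.

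Of the MMPs in the astrocyte cultures, 6 were lower and 1 was higher by the 2-fold rule. The secreted gelatinase Mmp2 was at 707 CPM in WT against 89.7 CPM in S89G-DMP1, 7.88-fold lower (7.44 to 8.36), and its activator Mmp14 was at 749 and 231 CPM, 3.24-fold lower (3.11 to 3.37). The collagenase Mmp13 had 101 and 12 counts, 9.57-fold lower (5.25 to 19.1). Mmp11 was at 59.4 and 27.1 CPM, 2.19-fold lower (1.93 to 2.48), and Mmp19 at 70.1 and 27.5 CPM, 2.55-fold lower (2.26 to 2.88). The stromelysin Mmp3 did not reach the 2-fold rule, at 33.8 and 20.7 CPM. Mmp15 passed the rule upward, at 8.29 CPM in WT against 78.6 CPM in S89G-DMP1, 9.48-fold higher (7.76 to 11.7). It took 8.02% of the membrane-type MMPs per kb in that library and Mmp14 86.6%, or 25.1% and 66.8% with GENCODE exon lengths. Mmp11 did not reach 2-fold with library size alone (log2 ratio -0.83), and neither Mmp11 nor Mmp19 did with log2(FPKM + 1). Mmp24 was lower by the 2-fold rule on 16 and 6 counts, Mmp16 was 1.78-fold lower (1.51 to 2.11), and Mmp17 1.69-fold higher (1.37 to 2.09).

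The tolloids differed from each other in the astrocyte libraries. Bmp1 was at 272 CPM in WT against 267 CPM in S89G-DMP1, a ratio of 1.02 with a counting interval of 0.974 to 1.07 for WT over S89G-DMP1, and scaling by library size alone put its log2 ratio at 0.26. Tll1 was at 75.8 and 5.0 CPM, 15.2-fold lower (11.9 to 19.6) in S89G-DMP1. Dmp1 had 2 and 119 counts.

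Among the ADAMs, Adam19 was at 84.3 CPM in WT against 16.9 CPM in S89G-DMP1 astrocytes, 4.97-fold lower (4.32 to 5.74). Adam23 was 3.20-fold lower (2.63 to 3.93), at 30.3 and 9.44 CPM, and Adam12 2.45-fold lower (2.23 to 2.69), at 114 and 46.7 CPM. With library size alone Adam12 came just under 2-fold (log2 ratio -0.9975), as it did with both FPKM alternatives. The other 5 ADAMs were under 2-fold, from 1.66-fold lower for Adam9 (1.61 to 1.72) to 1.47-fold higher for Adam17 (1.35 to 1.60). Adam10 was at 261 and 265 CPM.

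Of the ADAMTS genes in astrocytes, 4 were higher and 2 lower by the 2-fold rule. Adamts9 was at 3.0 CPM in WT against 33.3 CPM in S89G-DMP1, 11.1-fold higher (7.97 to 15.9). The transcript A730049H05Rik, which overlaps 9.18% of its exon bases on the other strand, had 1 and 421 counts, and the library kit does not mark strand, so that reads in the overlap cannot be assigned. Adamts17 had 4 and 51 counts, 11.2-fold higher (4.12 to 42.7), and Adamts12 was at 6.24 and 18.7 CPM, 2.99-fold higher (2.32 to 3.90). Adamts20 had 0 and 47 counts, at least 13.8-fold higher against a floor of 3 counts in the WT library; it is named for its 0, after its values were seen. Adamts2, the procollagen N-proteinase, was 2.47-fold lower (2.04 to 2.99), at 27.7 and 11.2 CPM, and Adamts6 2.40-fold lower (1.98 to 2.92), at 25.8 and 10.8 CPM. Adamts6 came under 2-fold with library size alone (log2 ratio -0.96), and Adamts2 with log2(FPKM + 1) (-0.89). Of the proteoglycanases called in the NSCs, Adamts5 was 1.91-fold lower (1.75 to 2.09) on 1378 and 819 counts. Adamts1 (1514 and 1553 counts) and Adamts4 (412 and 434 counts) were 1.11-fold lower (1.03 to 1.19) and 1.08-fold lower (0.941 to 1.24) after TMM scaling, while their counts relative to the library total were higher in S89G-DMP1. Adamts7, Adamts10 and Adamts15 were 1.28-fold to 1.66-fold lower, with an interval for Adamts15 that held 1 (0.920 to 1.78). The ratio of Adamts4 to Adamts5 per kb was 0.594 in WT and 1.05 in S89G-DMP1.

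Per kb, the 38 members summed to 9878 CPM in the WT and 1970 CPM in the S89G-DMP1 astrocyte library, of which the TIMPs made up 8140 and 1113. In the NSCs the same sum was 1221 ± 17.7 in WT and 1076 ± 32.6 in S89G-DMP1, with the TIMPs at 83.1 ± 0.651 and 72.8 ± 3.52. With GENCODE exon lengths the 38 members summed to 4105 and 963.9 CPM per kb in astrocytes and 617.6 and 565.4 CPM per kb in NSCs. Set side by side, 3 of the 9 members that fell in the NSCs, Timp2, Adam12 and Adam19, also passed the 2-fold rule downward between the astrocyte libraries, Adam12 with TMM scaling but not with library size alone. Adamts9 and Adamts17 passed it upward, and Bmp1, Adam22, Adamts1 and Adamts5 were under 2-fold. Of all genes counted in astrocytes, 12.8% passed the rule downward and 17.3% upward, whatever their change in the NSCs. The shares among all genes that fell in the NSCs were not worked out.

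**Figure D4:**
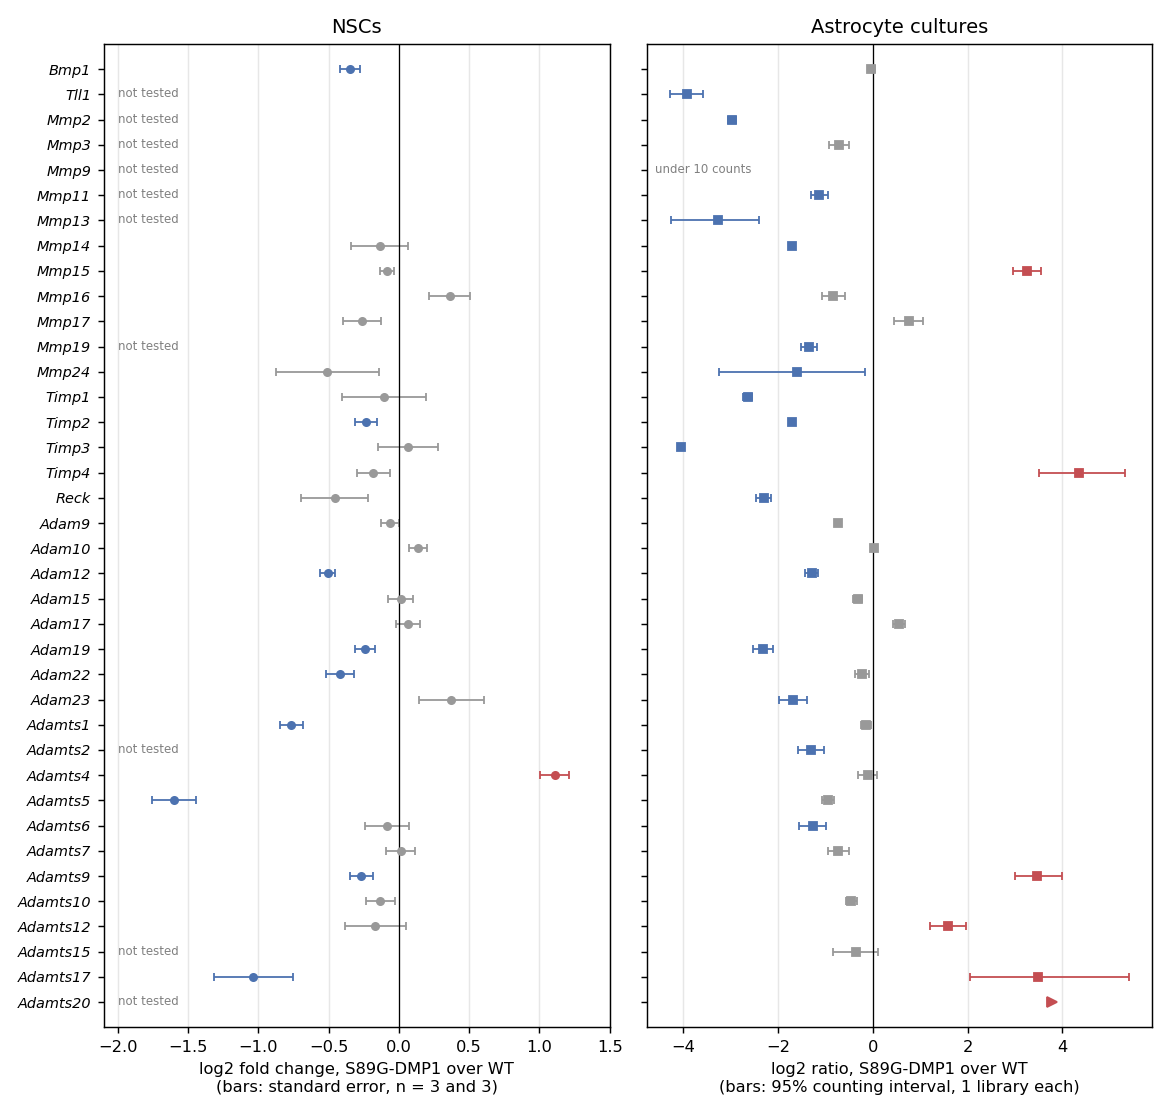
Change of each member in S89G-DMP1 over WT, on a log2 scale. Left, NSC log2 fold changes with standard errors (3 and 3 libraries), coloured where called (blue lower, red higher). Right, astrocyte log2 ratios with 95% counting intervals (1 library each), coloured where 2-fold or more, with a triangle for the lower bound of Adamts20. Adamts4 is the 1 red point among NSCs, and Timp3, Tll1 and Timp4 lie farthest from 0 in astrocytes.

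Related genes outside the group were read from 3 lists, whose counts stand beside 8.76% of all genes lower and 7.08% higher in the NSCs, and 12.8% lower and 17.3% higher in astrocytes. Of 51 other family genes, 9 were tested in the NSCs and 3 fell, Adamts8 (log2 fold change -0.85 ± 0.21, adjusted p = 0.00237), Adamts16 (-1.36 ± 0.39, adjusted p = 0.00905) and Papln, a papilin related to ADAMTS proteins (-0.91 ± 0.13, adjusted p = 7.83e-08). With DESeq2 Papln passed, and Adamts8 (adjusted p = 0.0574) and Adamts16 (adjusted p = 0.126) did not. With edgeR and DESeq2 0 rose, and 1 had a positive change at an unadjusted edgeR p under 0.05. The call for Adamts16, on few counts, was lost without S89G-DMP1 library 1. Adamts8 was at 15.6, 17.5 and 17.2 CPM in WT and 9.27, 7.70 and 10.8 CPM in S89G-DMP1 NSCs. In the astrocyte cultures 24 were counted, 9 lower and 7 higher, and those with the largest ratios were Adamtsl2 (409 and 1 counts), Adamts16 (0 and 85 counts) and Adamtsl3 (85 and 3311 counts).

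Of 33 regulators of these proteases, 19 were tested in the NSCs, 7 fell and 2 rose. The proprotein convertases Furin and Pcsk6, which activate many of them by cutting off the prodomain, both fell. Pcsk6 was at 30.3, 31.1 and 29.2 CPM in WT and 13.5, 13.7 and 12 CPM in S89G-DMP1 NSCs (log2 fold change -1.21 ± 0.17, adjusted p = 6.46e-08), and Furin fell by 0.53 ± 0.11 on the log2 scale (adjusted p = 3.34e-04). The matricellular genes Sparc and Ccn1 fell by 0.55 ± 0.08 and 0.90 ± 0.30 (adjusted p = 8.51e-08 and 0.0271), and the call for Ccn1 was lost with DESeq2 (adjusted p = 0.227) and in 4 of 6 fits that left out a library, those without WT library 2 or 3 or S89G-DMP1 library 1 or 2. A2m, a broad protease inhibitor, rose from 7.16, 6.22 and 9.98 CPM to 14.3, 16.7 and 19.3 CPM (1.10 ± 0.23, adjusted p = 1.73e-04). The astrocyte cultures held 8 lower and 8 higher of 30, with A2m (52 and 1937 counts) and Tspan15 (37 and 898 counts) among those farthest from equal.

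Of 34 substrates, 24 were tested in the NSCs, 10 fell and 2 rose. With Dmp1, the Notch ligand Jag1 (-0.57 ± 0.10, adjusted p = 2.09e-05) and the proteoglycan Cspg4 (-0.56 ± 0.07, adjusted p = 1.15e-08) changed at least 1.4-fold. Jag1 was at 82.2, 80.8 and 67.5 CPM in WT and 51.8, 54.4 and 49.3 CPM in S89G-DMP1 NSCs. Cspg4 was at 173, 172 and 176 CPM and 131, 115 and 107 CPM. Of 32 substrates counted in the astrocyte cultures, 11 were lower and 10 higher, and Ncan (73 and 5633 counts), Dmp1 and Bcan (36 and 711 counts) had the largest ratios.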

How the data were processed

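RNA sequencing of 8 libraries was examined. The authors deposited, for astrocytes, unscaled counts per gene and FPKM values from reads aligned with TopHat2 2.0.9 and Bowtie2 2.0.6 per the submitters' processing notes, which for the NSCs name HISAT2, StringTie, featureCounts and GRCm38. The counter and build of the astrocyte table and the annotation of both are not given in the sources used here. For the NSCs the authors deposited raw counts and TPM values. Of 5804 NSC genes averaging 100 counts or more, 81 are listed at a TPM of 0 in at least 1 library, among them 0 of 16 members. TPM and FPKM values therefore served as alternatives only, apart from the gene lengths that FPKM implies.

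NSC counts (edgeR 4.0.16, R 4.3.3) passed through filterByExpr and TMM scaling and were tested with glmQLFit and glmQLFTest on genotype alone, called at a Benjamini-Hochberg adjusted p of 0.05 over all genes tested. Errors of levels are SD and those of log2 fold changes SE. Astrocyte log2 ratios of TMM-scaled CPM used a prior count of 2, and folds are ratios of CPM with exact conditional binomial 95% intervals. Levels per kb used the length implied by the deposited FPKM. Alternatives were DESeq2 1.42.0, limma 3.58.1 on log2 TPM, FPKM, other scalings, filters and prior counts, left-out libraries, the replicate number as a block and exon lengths. The procedure was tested on simulated data. IDs were named through a table of gene names, which matched 47224 of 47729 in the NSC and 39973 of 40562 in the astrocyte table.

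The members and lists were chosen with earlier results of these data known. Members were given with a value in every library if called in the NSCs, at least 2-fold changed in astrocytes with 50 or more counts, a tolloid, or among the 5 highest per kb in a WT group. From the other lists, genes called in the NSCs and changed at least 1.4-fold, and the 3 largest astrocyte changes with at least 50 counts, were named. A few genes that these rules or the marker lists would name are not reported here. Protein sequences were not examined here.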

Additional observations from a re-analysis of the deposited data

Results flagged for a closer look

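For 2 members and 4 list genes changed at least 1.4-fold in the NSCs, levels were lower in S89G-DMP1 NSCs and 2-fold or more higher in the S89G-DMP1 astrocyte library. Another 6 list genes with smaller falls in the NSCs did the same. Of all genes counted in astrocytes, 17.3% were 2-fold or more higher with S89G-DMP1, and the share among all genes that fell in the NSCs was not worked out. The difference between the cell types was not tested, since the tables were made separately and the astrocytes had 1 library per genotype. Among the members, Adamts9 had a log2 ratio of 3.41 in astrocytes and a log2 fold change of -0.27 in NSCs, and Adamts17 had 2.99 and -1.04. Among the other lists, Adamts16 had 5.36 and -1.36, Papln 3.87 and -0.91, Pcsk6 2.12 and -1.21, and Dmp1 4.78 and -1.90. The WT astrocyte library, against which these ratios were taken, was the library with 90 counts of Gfap and 8 of Aqp4.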

How the results depend on the processing

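With DESeq2, 348 genes rose and 503 fell in the NSCs (edgeR 792 and 981), and 5 members and 1 other family gene fell. With limma on log2(TPM + 1), 38 genes rose and 107 fell, and on log2(TPM + 0.1) 31 and 85. At both pseudocounts 2 members fell, with 1 other family gene, 1 regulator and 1 substrate lower, 0 substrates higher, and 1 regulator higher at the pseudocount of 1 and 0 at 0.1. The cause of these differences was not tested. Adamts4 was called with DESeq2 and at the pseudocount of 1 (adjusted p = 0.0211), where Adamts1 and Adamts5 were not (adjusted p = 0.261 and 0.436).

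Leaving out each NSC library in turn gave 6 to 9 members lower and 1 higher, 571 to 733 genes higher and 770 to 926 lower, and 1 to 3 substrates higher, 1 without S89G-DMP1 library 1 and 1 without library 2. Bmp1, Adam12, Adam22, Adamts1, Adamts4 and Adamts5 passed in all 6 fits. The log2 fold change of Adam9, not called in any, ranged from -0.1344 to 0.0057, the sign turning without S89G-DMP1 library 1.

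With the replicate number as a block, 829 genes rose and 1016 fell, and 9 members fell and 1 rose. Correlations of same-numbered libraries were 0.03, -0.01 and -0.02, and 1 of 3 numbers matched best with its own, so the libraries share only a number.

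In astrocytes, at least 10 counts in both libraries gave 1591 genes higher, and 4 other family genes higher and 4 lower. With log2(FPKM + 1), 1020 genes, 10 members and 4 other family genes were 2-fold lower. That alternative changes the scaling as well as the pseudocount, and the cause was not tested. NSC counts limit members under about 12 counts, and in astrocytes counting error is the only error the data give.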

Other observations

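Mmp3 and Mmp13 lie in a cluster of 9 MMP genes that spans 427 kb of mouse chromosome 9 in GENCODE M21, and all 9 had 0 counts in the 6 NSC libraries. In the astrocyte cultures, the WT library held more counts than the S89G-DMP1 library for each of the 6 genes with any count. Mmp12, the macrophage elastase, had 845 and 98 counts, 9.81-fold lower in S89G-DMP1 (7.95 to 12.2, 95% counting interval). The summed microglial markers were 582 CPM in WT against 851 CPM in S89G-DMP1. Of the 8 markers, 3 passed the 2-fold rule upward, among them Cx3cr1 (320 and 2372 counts), and 1 downward, Tmem119 (1434 and 699 counts). Cx3cr1 and Tmem119 were named after their values were seen. The part of these markers in the Mmp12 difference was not tested. Mmp10 had 29 and 4 counts, Mmp8 11 and 0 (at least 4.17-fold lower against a floor of 3 counts) and Mmp27 19 and 0 (at least 7.20-fold lower). Mmp3, with 428 and 298 counts, had the smallest ratio of the 6. Mmp1b, Mmp20 and Mmp7 were at 0 in both. The cluster genes other than Mmp3 and Mmp13 were chosen for their position after values had been seen, and no replicate check exists for these libraries.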
